A study of Mus musculus with 8 samples.

Results

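Replication-dependent histone genes encode the core histones H2A, H2B, H3 and H4 and the linker histone H1 that package newly copied DNA. Genes were chosen from the table of transcript levels by symbol, as those named in the H1f1 to H1f6, H2ac, H2bc, H3c or H4c series (formerly Hist1h to Hist4h) on the primary chromosomes. The rule found 64 of the 52778 rows of the table, of which 6 encode H1, 18 H2A, 16 H2B, 12 H3 and 12 H4. There are 63 protein-coding genes and 1 pseudogene, H2ac14. On GRCm38, 54 of them lie on chromosome 13 and 10 on chromosome 3. The rule uses names only, and no measured value enters it, but it was chosen with earlier results of these data known. Histone genes with other names are not among the members.

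These genes are transcribed in S phase, when the cell needs histones in step with DNA synthesis. Their mRNAs are unusual: most have no introns and no poly(A) tail, and end instead just after a short stem-loop that is bound by Slbp, the stem-loop-binding protein, and trimmed by a dedicated processing complex. A few of the genes can also make a longer, polyadenylated mRNA, which lets cells that have left the cycle keep making the protein. In the embryonic ventricle, cardiomyocytes are still dividing at midgestation.

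RNA was measured in ventricles of mouse embryos at embryonic day 11.5. In 4 conditional knockout libraries (cKO), both Rps19bp1 alleles were floxed and Cre was driven by Xmlc2 in cardiomyocytes (Rps19bp1 fl/fl; Xmlc2-Cre +/−), and 4 libraries were labelled control. The product of Rps19bp1 resides in the nucleolus and takes its name from binding Rps19, a protein of the small ribosomal subunit. Whether the controls carried floxed alleles or Cre, and whether a library was 1 embryo or a pool, is not given in the sources used here, and Cre in cardiomyocytes leaves the gene in the other cells of the ventricle. The genotype field names C57BL/6 WT for all 8 libraries, against the treatment field and titles. Rps19bp1 itself was at 15.2, 11.8, 13.7 and 19.2 TPM in cKO 1 to 4 and at 40.9, 44.2, 34.7 and 40.0 TPM in control 1 to 4 (TPM, a level per transcript length scaled to the same total in each library). The groups did not overlap, and the fitted log2 change was -1.37 (SE 0.127, limma adjusted p = 0.000508), in the direction of the labels.

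The texts disagree on how the libraries were made, which bears directly on histone mRNAs. The series text describes a stranded mRNA kit, which selects poly(A) tails, on RNA of dissected ventricles, while the sample text describes depletion of ribosomal RNA on RNA of cultured cortical neurons. The neuronal markers summed to 6.61 to 16.6 TPM in the 8 libraries and the 12 cardiomyocyte markers to 45848 to 50246 TPM, so the tissue markers were those of heart. Of 13 other RNAs without poly(A) tails, 7 reached a mean of 1 TPM. Among them the 7SK RNA Rn7sk averaged 3.91 ± 2.18 TPM in cKO and 3.79 ± 2.82 TPM in control (SD, n = 4), and a ribosomal RNA row, Rn18s-rs5, 3741 ± 1829 and 3227 ± 1395 TPM. By library, Rn7sk (7.94 TPM), Rmrp, Rpph1, Rn7s1 and Rn7s2 were highest in control 4. Rn18s-rs5 was highest in cKO 4 (6349 TPM) and Terc in cKO 3 (2.10 TPM). The part of library type in the histone levels was not tested. TPM keeps no read depth, so the counting error behind low values is unknown, and the errors given are those between libraries.

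The stem-loop that ends these mRNAs is shown first, because it is what sets the family apart from other mRNAs. The histone stem-loop pattern, a stem of 6 bases closed by a 4-base loop, was searched on the sense strand in the letters of GENCODE M21 transcripts (GRCm38). It was present in 43 of the 64 members, 21 to 58 bases after the stop codon (median 31) and in 8 distinct forms. Anywhere in a transcript, it was in 87 of 58797 protein-coding transcripts in all (0.148%). The sequences below run 5′ to 3′ with 5 bases on either side, and capitals mark the 2 arms of the stem.
H1f2: caaaaGGCTCTtttcAGAGCCaccac
H2ac18: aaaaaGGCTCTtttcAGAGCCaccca
H2bc8: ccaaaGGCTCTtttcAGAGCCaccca
H3c3: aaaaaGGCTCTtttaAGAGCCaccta
H4c9: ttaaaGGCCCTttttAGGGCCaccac
H4c8: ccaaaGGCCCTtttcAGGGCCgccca
H4c2: caaaaGGTCCTtttcAGGACCactca
In all 7 the stem follows the letters aaa, and the loop opens with ttt. The core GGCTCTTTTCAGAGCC occurred in 24 members, from the H1, H2A, H2B and H3 families. The H4 genes carried other stems: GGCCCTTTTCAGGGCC was in 6 members, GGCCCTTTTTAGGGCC in 2, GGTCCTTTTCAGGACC in 2 and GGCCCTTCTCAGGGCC in 1, all of them H4. Of the 21 members without a match, 13 have a model that ends at the stop codon and 2 a model that ends 1 or 2 bases after it, so these 15 models stop short of the place where a stem-loop would lie. H2bc4 and H2bc21, both among the most abundant members, had no match in the letters of their transcript models, and the H2ac19 stem-loop has the same letters as that of H2ac18. A model that runs on well past the stem-loop describes a longer transcript. Models of 20 members ran at least 100 bases past it, with a median level of 0.750 TPM, and those of 23 members ended sooner, with a median of 0.964 TPM.

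Histone transcripts were detected in every library, at low levels. In cKO 1 to 4, 58, 61, 60 and 62 of the 64 genes were above 0 and 26, 17, 26 and 33 reached 1 TPM. In control 1 to 4, 60, 62, 62 and 63 were above 0 and 23, 30, 21 and 27 reached 1 TPM. Across libraries 54 genes were above 0 in all 8, 11 reached 1 TPM in all 8, and 22 stayed below 1 TPM in all 8. The median gene lay between 0.656 and 1.02 TPM per library. Together the 64 genes held 0.0109% to 0.0153% of the transcript level of a library.

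A few genes carried most of that level. H2bc4 alone made up 22.8% of the summed TPM, the 3 most abundant genes (H2bc4, H1f2 and H4c9) 43.9% and the 10 most abundant 68.7%. By family, H2B held 37.8%, H2A 23.0%, H4 14.9%, H1 14.4% and H3 9.89%. H1 was the most uneven family: H1f2 averaged 17.2 TPM while the median H1 gene was at 0.378 TPM. The median was highest for H2A genes, at 1.07 TPM.

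The summed level did not separate the groups. The 64 genes summed to 153, 120, 136 and 138 TPM in cKO and to 109, 131, 111 and 151 TPM in control, means of 137 ± 13.3 and 125 ± 19.6 TPM (SD, n = 4), a ratio of 1.09. The lowest cKO library, replicate 2, lay below control 2 and control 4. H2B summed to 54.1 ± 7.51 TPM in cKO and 45.0 ± 3.86 TPM in control, a ratio of 1.20, and without H2bc4 to 20.3 ± 2.33 and 18.9 ± 1.13 TPM. H1 (19.5 and 18.3 TPM), H2A (30.9 and 29.4), H3 (12.7 and 13.2) and H4 (19.5 and 19.4) differed less. By cluster, the 54 genes of chromosome 13 summed to 111 ± 11.9 and 107 ± 16.1 TPM. The 10 genes of chromosome 3 summed to 25.6 ± 2.17 TPM in cKO and 18.4 ± 4.48 TPM in control, a ratio of 1.39, with cKO 2 (22.4 TPM) under control 2 (23.1 TPM). The groups overlapped in each of these sums.

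**Figure D1:**
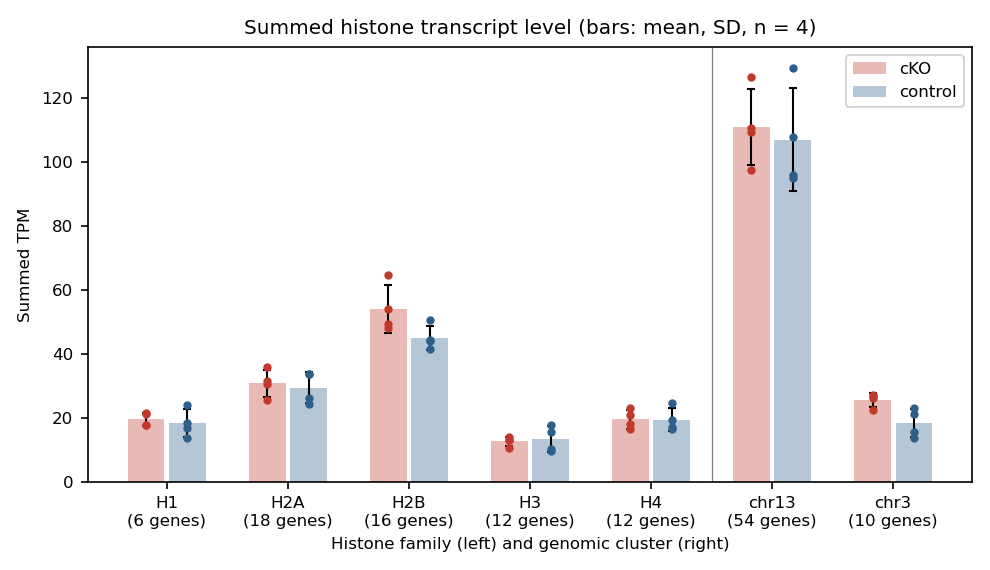
Summed TPM (vertical axis, linear from 0) of the histone genes by family and by chromosome, in cKO and control. Bars are means over 4 libraries, error bars are SD and points are libraries. H2B is the most abundant family, and the points of the groups overlap in every family and in both clusters.

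Single genes were compared where the mean over the 8 libraries reached 1 TPM, which left 25 genes: 1 H1, 10 H2A, 6 H2B, 3 H3 and 5 H4. The last gene inside was H2ac7 at 1.06 TPM and the first outside was H2bc12 at 0.985 TPM. The test was limma on log2(TPM + 1), two-sided, with p-values adjusted by Benjamini-Hochberg over all 15541 rows that reached the same level. On this scale the changes of genes near 1 TPM are understated. With an adjusted p under 0.05, 1 of the 25 genes was higher in cKO and 0 were lower, beside 2.16% of all tested rows higher and 4.23% lower, or 6.40% in either direction. At an unadjusted p under 0.05 the count was 5 of 25, where the share over all rows was 23.7%. The groups did not overlap in 1 of 25 genes, beside 15.6% of all rows. By sign, 11 changes were above 0 and 14 below, with a median of -0.06 where all rows had -0.02. With all 64 genes fitted and no filter, 34 were above 0 and 30 below, with a median of 0.01.

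The linker histone H1f2, which binds the DNA between nucleosomes, was at 19.6, 16.1, 19.1 and 16.01 TPM in cKO and at 13.1, 16.4, 15.8 and 21.1 TPM in control. Its highest and its lowest library were both controls, and the fitted change was 0.10 (SE 0.126, adjusted p = 0.677). It is known to make polyadenylated transcripts as well.

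Among H2B genes, H2bc4 was the most abundant histone gene of all. Its row spans 8282 bases on chromosome 13 (23684199 to 23692480, + strand), where the median histone row spans 491 bases, and which length the TPM used is not given in the sources used here. H2bc4 was at 42.2, 29.1, 36.5 and 27.3 TPM in cKO and at 23.7, 25.0, 25.7 and 30.1 TPM in control. The libraries cKO 1 and 3 lay above every control and cKO 2 and 4 lay below control 4, with a fitted change of 0.34 (SE 0.129, adjusted p = 0.145). H2bc21, another H2B gene with known polyadenylated transcripts, was at 5.99, 7.25, 5.26 and 6.00 TPM in cKO and 4.37, 5.87, 5.89 and 4.91 TPM in control. Its groups overlapped by cKO 3 alone, with a change of 0.19 (adjusted p = 0.348). H2bc8 was at 7.10, 5.39, 6.18 and 4.60 TPM in cKO and 4.80, 4.57, 5.08 and 6.46 TPM in control, and the libraries were mixed (change 0.13, adjusted p = 0.603). The 3 genes with known polyadenylated transcripts, H1f2, H2bc4 and H2bc21, summed to 57.6 ± 8.38 TPM in cKO and 48.0 ± 6.15 TPM in control, and overlapped.

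H4c9, the most abundant H4 gene, was at 10.3, 11.5, 6.80 and 9.28 TPM in cKO and at 8.72, 11.5, 9.85 and 15.5 TPM in control. The lowest value was in a cKO library and the highest in a control, with the other 6 mixed (change -0.23, SE 0.178, adjusted p = 0.474). H3c3, the most abundant H3 gene, was at 3.70, 2.35, 3.95 and 2.78 TPM in cKO and at 3.70, 4.77, 3.26 and 5.81 TPM in control. Both of its lowest libraries were cKO and both of its highest were controls (change -0.35, SE 0.170, adjusted p = 0.241).

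Of the H2A genes on chromosome 13, H2ac11 was at 3.24, 2.59, 2.32 and 3.06 TPM in cKO and 2.02, 3.41, 3.18 and 3.38 TPM in control, a change of -0.06 (adjusted p = 0.833). H2ac8 was at 2.41, 2.41, 1.59 and 2.54 TPM in cKO and 2.84, 3.96, 1.89 and 3.65 TPM in control, a change of -0.32 (adjusted p = 0.307). In H2ac8 control 3 lay among the cKO libraries and the other 3 controls above all of them. H2ac24 (1.24 ± 0.282 TPM in cKO and 1.97 ± 0.555 TPM in control) had a change of -0.40 with an unadjusted p of 0.0281 and an adjusted p of 0.156.

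**Figure D2:**
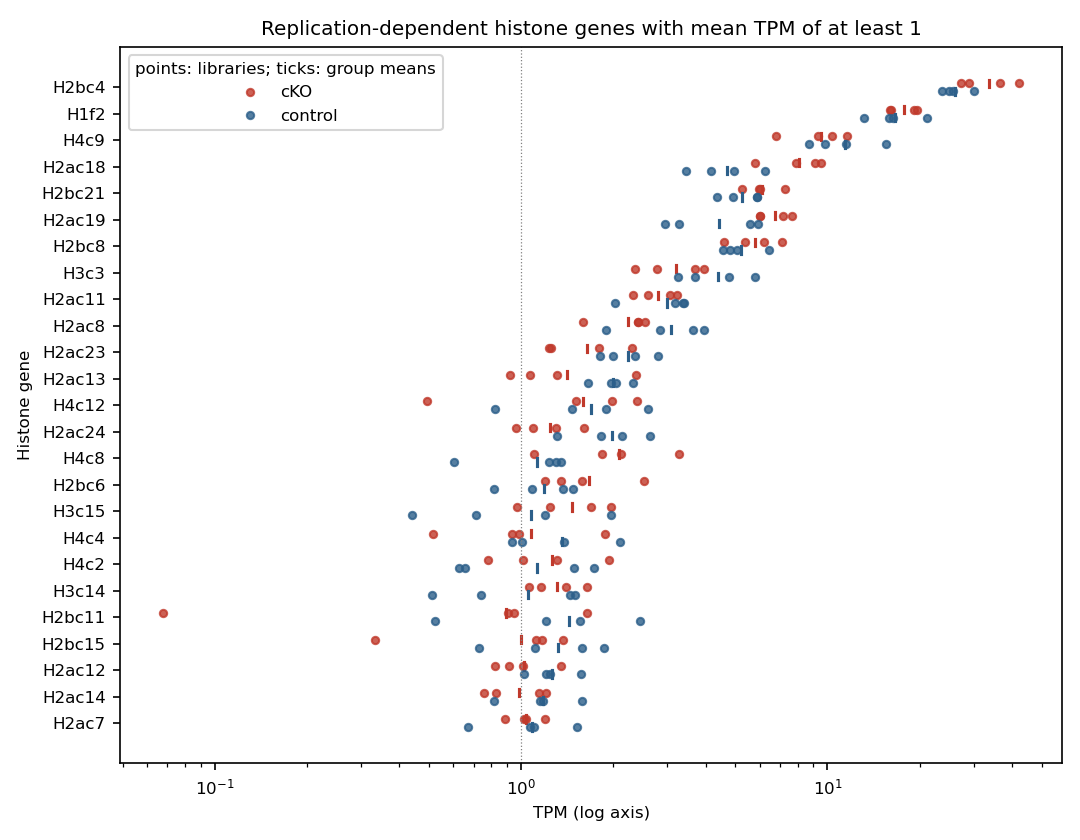
TPM (horizontal log axis) of the 25 histone genes with a mean of at least 1 TPM, in order of level. Points are the 4 cKO and 4 control libraries and ticks are group means. The points of the groups are mixed in nearly every gene, and H2ac19 is the 1 gene whose groups do not overlap.

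The 1 gene that passed the test was on chromosome 3. H2ac18 (Hist2h2aa1, chr3:96245497-96246052, + strand), which encodes a core histone H2A, was at 9.55, 5.80, 9.14 and 7.88 TPM in cKO and at 4.15, 4.95, 3.46 and 6.26 TPM in control. It rose by 0.68 on the log2 scale (SE 0.171, adjusted p = 0.0453), from 4.70 ± 1.20 to 8.09 ± 1.69 TPM. Its groups still overlapped, since cKO 2 lay under control 4. The adjusted p ran from 0.0270 to 0.156 over 17 alternatives and missed the threshold in 10 of them, among them leaving out cKO 1, 3 or 4 or control 1, 2 or 3. Without cKO 1 it was 0.114 and without control 3 0.109.

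H2ac18 has a near-identical copy, so its reads cannot be assigned with certainty. H2ac19 (Hist2h2aa2, chr3:96239779-96240374, − strand) lies nearby in the opposite orientation, and the H3 genes H3c15 and H3c14 flank the pair in mirror order. Of the 50-base windows of the H2ac19 model, 100% also occur in H2ac18, and 89.2% of those of H2ac18 occur in H2ac19. H2ac19 was at 6.04, 6.04, 7.65 and 7.16 TPM in cKO and at 2.94, 5.57, 3.26 and 5.92 TPM in control, with every cKO library above every control, if narrowly over control 4. Its change was 0.55 (SE 0.183, unadjusted p = 0.0132) and missed the threshold, with an adjusted p of 0.106. How reads shared by both copies were split is not given in the sources used here, and their sum was 15.6, 11.8, 16.8 and 15.04 TPM in cKO and 7.09, 10.5, 6.72 and 12.2 TPM in control, or 14.8 ± 2.12 and 9.13 ± 2.66 TPM, and cKO 2 lay under control 4.

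All 5 tested genes of chromosome 3 had a fitted change above 0 (median 0.28), also under each alternative that tested them, beside 6 of 20 on chromosome 13 (median -0.15). With no filter, 8 of the 10 genes of chromosome 3 and 26 of the 54 of chromosome 13 were above 0. Leaving out a library moved these medians: chromosome 3 had 0.13 without control 1 and 0.47 without control 2, and chromosome 13 had -0.05 without cKO 2 and -0.07 without control 4. The difference between the clusters was not tested. The 5 tested genes of chromosome 3 were H2ac18, H2ac19 and H2bc21, given above, and H3c15 and H3c14. H3c15 was at 1.47 ± 0.444 TPM in cKO and 1.08 ± 0.667 TPM in control (change 0.28). H3c14 was at 1.31 ± 0.260 and 1.05 ± 0.498 TPM (change 0.20). These 5 are not independent: H2ac18 and H2ac19 share sequence, and so do the H3 genes, with 63.5% of the windows of H3c15 found in H3c14. Of the H3c14 windows, 34.7% occur in H3c15 and 100% in a transcript of some other gene.

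The promoters of H2ac18 and H2ac19 are shown because these are the copies with the largest changes, both above 0. They are the RefSeq windows from 250 bases before to 50 after the start (GRCm38.p6), at chr3:96245247-96245546 (+) and chr3:96240325-96240624 (−), 5′ to 3′ on the gene's strand. Capitals mark CCAAT and TATAAA, each searched on both strands.
H2ac18: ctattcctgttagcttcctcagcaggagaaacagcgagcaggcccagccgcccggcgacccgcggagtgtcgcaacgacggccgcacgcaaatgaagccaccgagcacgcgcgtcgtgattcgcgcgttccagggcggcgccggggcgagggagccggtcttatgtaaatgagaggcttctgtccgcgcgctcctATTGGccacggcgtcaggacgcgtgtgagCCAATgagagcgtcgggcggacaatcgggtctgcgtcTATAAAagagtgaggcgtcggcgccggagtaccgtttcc
H2ac19: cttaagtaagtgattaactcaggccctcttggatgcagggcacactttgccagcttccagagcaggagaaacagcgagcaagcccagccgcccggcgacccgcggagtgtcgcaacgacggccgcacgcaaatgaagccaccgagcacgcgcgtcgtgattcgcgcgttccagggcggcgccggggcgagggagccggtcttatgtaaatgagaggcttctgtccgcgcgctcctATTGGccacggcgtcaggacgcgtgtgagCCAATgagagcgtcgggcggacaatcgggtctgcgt
An identical run of 219 bases joins them, from base 42 of the H2ac18 window and base 82 of the H2ac19 window. Both hold the 2 CCAAT matches inside that run. The H2ac18 window goes on to a TATAAA, and the H2ac19 window ends where the run does. Over all members, 58 had a RefSeq promoter, 1 of them with 2 windows. H2bc4, H2bc21, H2ac14, H3c1, H3c7 and H4c14 had none, so the shares below leave out the most abundant member. CCAAT, on either strand, was in 86.4% of the 59 windows and in 37.4% of 32851 windows of all genes: in every H1, H2A, H2B and H3 window but in only 3 of 11 H4 windows. TATAAA, again on either strand, was in 57.6%, beside 13.6% of all windows. The octamer ATTTGCAT, on either strand, was in 22.0%, beside 1.74% of all, and its 13 windows were 6 of the 17 H2A and 7 of the 15 H2B windows. None of these motifs contains another on either strand. Windows of head-to-head partners overlap, so the same site can count in both, as the octamer does in H2ac8 and H2bc8. Copies such as H2ac18 and H2ac19 are also counted separately, so the 59 windows are not independent.

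H2A and H2B genes often stand back to back and share the DNA between them. There were 12 head-to-head pairs with starts at most 500 bases apart, all of an H2A and an H2B gene, 164 to 281 bases apart, and they hold 24 of the 64 genes. The partners were mostly not at equal levels: the H2A gene was higher in 7 pairs and the H2B gene in 5. Those 5 include the pair H2ac1 and H2bc1, which was near 0. The nearest levels were in H2ac12/H2bc12 and H2ac22/H2bc22, at ratios of 1.16 and 1.18. H2bc4 averaged 29.9 TPM and its partner H2ac6, 240 bases away, 0.860 TPM, a ratio of 34.8. H2bc21 averaged 5.69 TPM and H2ac20, 192 bases away, 0.402 TPM, a ratio of 14.2. Both higher partners have long rows (2667 bases for H2bc21) and known polyadenylated transcripts. Of the lower partners, H2ac6 has a row of 487 bases but a transcript model that runs 2010 bases past its stem-loop. The model of H2ac20 ends 57 bases past it. The part of row length or transcript type in these ratios was not tested. The partners H2ac1 and H2bc1 were both too near 0 for a ratio. H2ac8 and H2bc8 were closer (2.66 and 5.52 TPM), and H2ac11 and H2bc11 were in the other order (2.90 and 1.16 TPM). In the 2 pairs with both genes tested, H2ac8/H2bc8 and H2ac11/H2bc11, the changes were -0.32 and 0.13, and -0.06 and -0.37, none of which passed the test.

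**Figure D3:**
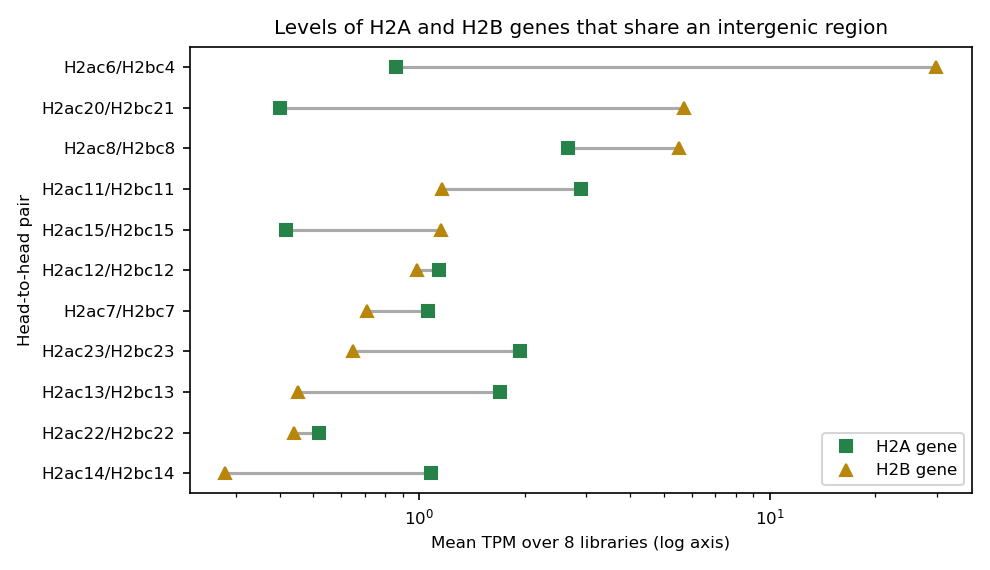
Mean TPM over the 8 libraries (horizontal log axis) of the H2A gene (square) and the H2B gene (triangle) of 11 head-to-head pairs, joined by a line. The germline pair H2ac1 and H2bc1, near 0, is not drawn. H2bc4 and H2bc21 stand far above their H2A partners, and the other pairs lie within 4-fold.

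The other tested genes were at 1.06 to 1.94 TPM, and none passed the test. Among H2A genes the changes were -0.30 for H2ac23 (1.64 TPM in cKO and 2.24 in control), -0.34 for H2ac13 (1.42 and 1.99), -0.16 for H2ac12 (1.02 and 1.26), -0.13 for the pseudogene H2ac14 (0.984 and 1.18) and -0.02 for H2ac7 (1.04 and 1.09). H2ac23, H2ac24, H2ac14, H2ac12, H2ac13 and H2bc15 share 93.5%, 93.1%, 93.1%, 90.7%, 90.1% and 86.4% of their windows with other genes. Their separate levels are therefore uncertain. Among H2B genes the changes were 0.27 for H2bc6 (1.66 and 1.19 TPM), -0.37 for H2bc11 (0.891 and 1.43) and -0.22 for H2bc15 (0.997 and 1.32). The H2bc6 row spans 37455 bases and overlaps Gm33387 on the other strand, so its reads may be shared with it. H4c8 was at 2.09 ± 0.905 TPM in cKO and 1.12 ± 0.350 TPM in control, a change of 0.51 with an unadjusted p of 0.0369 and an adjusted p of 0.180. The other H4 genes had changes of -0.08 (H4c12, 1.59 and 1.70 TPM), -0.19 (H4c4, 1.08 and 1.36) and 0.10 (H4c2, 1.26 and 1.13). Over all 64 genes the median share of windows found in a transcript of another gene was 51.0%, and 32 genes shared 50% or more.

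The 39 genes below the filter averaged 0.000253 to 0.985 TPM and summed to 21.0 ± 3.94 TPM in cKO and 20.1 ± 4.11 TPM in control. They include 3 genes known for testis and germ cells. H1f6, the testis linker histone, was highest in cKO 3 at 0.503 TPM and at or below 0.103 TPM elsewhere. H2bc1 averaged 0.0375 TPM in cKO and 0.144 TPM in control, and H2ac1 was listed above 0 in control 3 alone, at 0.00202 TPM.

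DNA replication genes, whose products copy the DNA that these histones package, were lower in cKO, while the histone sums overlapped. Of 41 such genes, all tested, 26 fell and 0 rose, beside 4.23% and 2.16% of all rows, and all 41 changes were below 0 (median -0.32), in every alternative. Rrm2, a subunit of the ribonucleotide reductase that makes deoxynucleotides, went from 193 ± 8.15 TPM in control to 138 ± 10.3 TPM in cKO (change -0.49, limma adjusted p = 0.00282). Gins2, of the replicative helicase, had a change of -0.42 (adjusted p = 0.00463), Pola2, of DNA polymerase alpha, -0.34 (0.00540), Mcm6, of the helicase ring, -0.43 (0.00619), Ccna2, the S-phase cyclin, -0.41 (0.00729), and Cdc45, a helicase activator, -0.39 (0.00758). Their groups did not overlap, nor did they in 34 of the 41 genes, beside 15.6% of all rows. The count of 26 fell to 13 without control 1 or control 3, to 16 without control 2 and to 17 without cKO 1 or cKO 3. Set against the summed level of these 41 genes (2189 ± 165 TPM in cKO and 2754 ± 82.9 TPM in control), the histone sum was 6.69%, 5.20%, 6.996% and 6.20% in cKO and 3.79%, 4.91%, 4.05% and 5.53% in control. The cKO libraries were mostly higher, with cKO 2 under control 4. The sum of the 41 replication genes was itself lower in cKO, without overlap, which alone raises this share.

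Histone chaperones, which carry histones to DNA, were in part lower as well. Of 24 tested, 8 fell and 0 rose, beside 4.23% and 2.16% of all rows, with a median of -0.18. They included both large subunits of CAF-1, which deposits H3 and H4 behind the fork, Chaf1b (-0.35, adjusted p = 0.0161) and Chaf1a (-0.37, 0.0165). Nasp, which stores soluble H3 and H4, changed by -0.40 (0.0184), Hat1, which acetylates new H4, by -0.33 (0.0281), Anp32e, a chaperone of H2A.Z, by -0.29 (0.0335) and Ssrp1, of the FACT complex, by -0.24 (0.0341). Tonsl and Nap1l1 were the other genes called. The count of 8 was 1 without control 1, 2 without control 3 and 4 without control 2, control 4, cKO 1 or cKO 3.

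The factors that transcribe, process and degrade histone mRNA included 2 that fell. Of 22 genes, 21 were tested, 2 fell (9.52%, beside 4.23% of all rows) and 0 rose (2.16% of all rows), with a median of -0.11. The groups did not overlap, with cKO lower, in 7 of the 21 and, with cKO higher, in 1, beside 15.6% of all rows in either direction. The 2 genes that fell were Srrt (-0.18, adjusted p = 0.0323), which links the cap-binding complex to processing, and Exosc10 (-0.19, 0.0358), a nuclear exosome nuclease. Both were lost when any library other than cKO 4 was left out. Slbp was at 52.9 ± 4.62 TPM in cKO and 59.7 ± 2.09 TPM in control (-0.18, adjusted p = 0.129). Npat, the coactivator of histone gene transcription, was at 16.2 ± 1.53 and 16.002 ± 0.0876 TPM (0.01, adjusted p = 0.935).

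Variant and replacement histones were far more abundant in these libraries and 2 of them fell. Most are made throughout the cell cycle from polyadenylated mRNAs, while H2ax makes both a stem-loop and a polyadenylated mRNA. The 15 genes summed to 2099 ± 123 TPM in cKO and 2337 ± 56.7 TPM in control, without overlap, beside 137 and 125 TPM for the 64 replication-dependent genes. Of 11 tested, 2 fell and 0 rose (median -0.12), beside 4.23% and 2.16% of all rows. Cenpa, the centromeric H3, was at 105 ± 10.8 TPM in cKO and 138 ± 2.39 TPM in control (-0.40, adjusted p = 0.0124), and H2az1, the variant H2A.Z, at 382 ± 46.6 and 483 ± 12.7 TPM (-0.34, adjusted p = 0.0361). The count was 1 without any 1 of the controls. H2ax, the variant phosphorylated at DNA breaks, missed the threshold (-0.43, adjusted p = 0.0543). H3f3a and H3f3b, which encode H3.3, were at 688 and 244 TPM in cKO and 693 and 233 TPM in control, with changes of -0.01 (adjusted p = 0.928) and 0.06 (0.657).

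**Figure D4:**
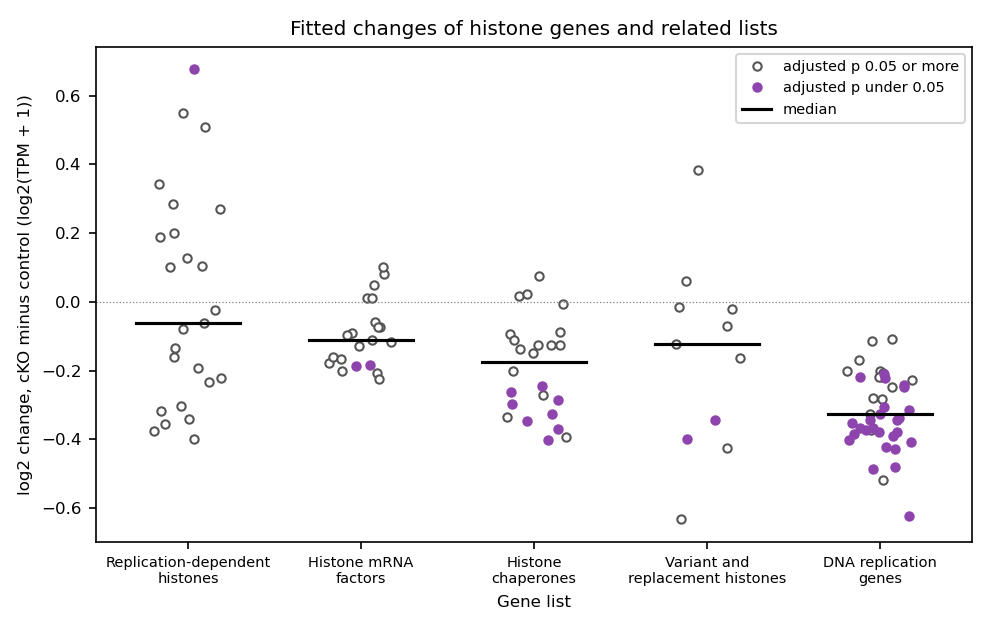
Fitted log2 change on the log2(TPM + 1) scale, cKO minus control (vertical axis), of each tested gene in 5 gene lists. Filled points have an adjusted p under 0.05 and bars are medians. The histone genes spread on both sides of 0 with a median of -0.06, and all 41 DNA replication genes lie below 0.

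In whole ventricles, fewer cells of a type and less RNA per cell cannot be told apart. Markers of several cell types moved between the groups. The counts of called markers below stand beside 2.16% of all tested rows called higher and 4.23% called lower. The cardiomyocyte markers summed to 47017 TPM in cKO and 47551 TPM in control and overlapped, and 1 of 12 was called lower. The 6 epicardial markers summed to 318 to 402 TPM in cKO and 259 to 293 TPM in control (4 of 6 called higher), and the 7 mesenchymal markers to 824 to 1004 and 560 to 722 TPM (3 of 7 called higher). The 10 erythroid markers summed to 1764 to 3774 TPM in cKO and 1979 to 7185 TPM in control, highest in control 4, with 0 called. The 8 endothelial markers (761 to 866 and 718 to 762 TPM) and the 8 macrophage markers (37.7 to 66.4 and 36.4 to 50.1 TPM) overlapped, with 0 called. The mitochondrial rows took 141851 ± 13900 TPM in cKO and 119419 ± 3498 TPM in control, without overlap, which lowers the TPM of every other row. With all genes rescaled without mitochondrial, globin and ribosomal RNA rows, the ratio of the histone sums was 1.12 in place of 1.09. The part of cell composition in the histone and replication values was not tested.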

How the data were processed

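Steady-state RNA was measured in 4 cKO and 4 control libraries, grouped by the sample labels. The values are TPM deposited by the authors. Per the submitters' processing notes the tools were FastQC, Trim Galore 0.6.7, HISAT2 2.2.1, StringTie 2.2.1, featureCounts and DESeq2 on GRCm38; their order, the annotation, the use of strand and the treatment of reads with several matches are not given in the sources used here. All 64 histone rows have the same start and end in RefSeq GRCm38.p6.

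From these values, log2(TPM + 1) was fitted in R 4.3.3 with limma 3.58.1 (lmFit, eBayes with trend, group as the only term) over the 15541 rows with a mean of at least 1 TPM, and p-values were adjusted by Benjamini-Hochberg over those rows. The fit was tested on simulated data with 200 changed genes. Sums over genes carry no p-value. The p-values set the difference between the groups against the spread between libraries within them, with each gene's variance moderated across genes. These libraries all have 1 batch label. Depth is unknown from TPM, so its precision is given only as the spread between libraries.

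The members and lists were chosen with earlier results of these data known. Every tested histone gene is named with its group means or library values, with library values for the 10 most abundant and for those that passed the test; of each other list, called genes may be named, with up to 6 in full, and Slbp, Npat, H2ax and the H3.3 genes were named after their values were seen. The descriptions of stem-loops, shared 50-base windows (GENCODE M21), head-to-head pairs, promoters, the sum of both H2A copies and the histone sum relative to replication genes were also chosen after the files were seen. Alternatives were a pseudocount of 0.1 or 5, no filter, a mean of at least 5 TPM, quantile and median-ratio scaling, rescaling without mitochondrial, globin and ribosomal RNA rows, eBayes without trend, a block for the replicate number and leaving out each library. Figures were drawn with matplotlib 3.10.9.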

Additional observations from a re-analysis of the deposited data

Results flagged for a closer look

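In 3 genes, 1 library stood apart from the other 3 of its group by Dixon's 95% criterion on the gap to its nearest neighbour. H2ac11 was at 2.02 TPM in control 1 and at 3.18 to 3.41 TPM in the other controls. H2ac8 was at 1.59 TPM in cKO 3 and at 2.41 to 2.54 TPM in the other cKO libraries. H4c8 was at 0.603 TPM in control 1 and at 1.23 to 1.35 TPM in the other controls. These were 3 of 66 groups of values examined, where chance alone gives about 1 in 20. None of the 3 genes passed the test between groups.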

How the results depend on the processing

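The 994 rows called over the whole table became 609 by eBayes without trend, 347 without a filter and 420 with the replicate block, and 390 to 938 when a library was left out. The split of 336 higher and 658 lower became 383 and 380 under quantile normalization, 383 and 419 under median-ratio scaling and 394 and 382 after rescaling. The 1 histone call was 0 without trend, without a filter, under quantile normalization and with the replicate block, and 0 to 1 when a library was left out. Without cKO 4 the gene called was H2ac13 (-0.51, adjusted p = 0.0481, range over its alternatives 0.0481 to 0.480) in place of H2ac18. DNA replication genes called lower (26) numbered 17 without trend, 10 without a filter, 15 with the block and 13 to 24 by leaving out a library. They numbered 18 under quantile normalization, 19 under median-ratio scaling and 22 after rescaling. For chaperones (8) the counts were 4 without trend, 5 under median-ratio scaling or quantile normalization, 0 without a filter, 3 with the block and 1 to 7 by library. For the 2 histone mRNA factors the count was 0 without trend, under median-ratio scaling, quantile normalization, the block or rescaling, and 0 to 2 by library. For the 2 variant histones it was 1 without trend, 0 without a filter and 1 to 3 by library. The fit without a filter tested 32491 rows, and the causes of the other differences were not tested. The median histone change was 0.19 over the 7 genes with a mean of at least 5 TPM and -0.10 to -0.01 by library. The ratio of histone sums was 1.04 to 1.17 by library, 1.11 under median-ratio scaling, 1.06 without the 3 most abundant genes and 1.04 without H2bc4, the last chosen after seeing the data. Leaving out a library turned signs, with none called, for H2ac11 (-0.19 to 0.00072, above 0 without cKO 3), H2ac7 (-0.13 to 0.011, above 0 without cKO 2), H4c12 (-0.25 to 0.17, above 0 without cKO 2 or, at 0.08, without control 2) and H4c2 (-0.032 to 0.24, below 0 without cKO 1 and, at -0.012 and -0.0045, without control 2 and control 3).

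Replicate numbers did not pair the samples: same-numbered libraries had correlations of -0.01, 0.07, 0.06 and -0.09 in their deviations from group means across genes, and 2 of 4 cKO libraries matched best with the control of their own number. Most histone genes lay near 1 TPM, where the unknown depth limits what a difference between 2 libraries can show.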
